A study of Homo sapiens with 4 samples.

Results

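The 10 genes described here encode proteins that set the activity of mTORC1, the kinase complex that couples cell growth to nutrients and stress. They are the sestrin genes SESN1, SESN2 and SESN3, DDIT4, RHEB, TSC1, TSC2, MTOR, RPTOR and DEPDC5. They were chosen by name, with earlier results of these data known. Rows of the 4 deposited libraries were matched to HGNC symbols, and all 10 were found among 20286 gene identifiers. RNA came from cultures of HLE, a human liver cancer line (hepatocellular carcinoma). In the Vector group (2 libraries) the cells stably carried an empty vector, and in the CYR61 group (2 libraries) they stably expressed CYR61, a secreted matrix protein whose current symbol is CCN1. All cultures were kept in medium with 10% fetal bovine serum and, per the labels, received no treatment. The 2 replicates per group are, in the series' design text, separate cultures of the whole stable population. The p-values therefore cover culture-to-culture spread and not the spread between independently made lines, and the number of times each line was made is not known here.

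As background, mTORC1 works on the lysosome, where the small GTPase RHEB in its GTP-bound form switches the kinase on. The TSC complex turns RHEB off, and DDIT4 (also called REDD1) is a stress-induced inhibitor that acts through TSC. Amino acids signal through the Rag GTPases, which GATOR1 inhibits. Sestrins bind GATOR2, and SESN2 is released from it by leucine. DDIT4 is a known target of low oxygen, glucocorticoids and ATF4, SESN2 of ATF4 and NRF2, and SESN3 of FOXO factors. Much of mTORC1 control is by phosphorylation and location, which RNA counts do not measure.

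DDIT4 and SESN2 were lower in the CYR61 libraries, while TSC1, TSC2, RHEB, MTOR, RPTOR and DEPDC5 were not called. To give context for this pair, the 250 bases before the RefSeq start of each are shown, 5′ to 3′ on the gene's strand (GRCh38.p14). Capitals mark matches to the motifs listed after them. The SESN2 window is chr1:28259268-28259517 on the plus strand and the DDIT4 window is chr10:72273674-72273923 on the plus strand.
SESN2: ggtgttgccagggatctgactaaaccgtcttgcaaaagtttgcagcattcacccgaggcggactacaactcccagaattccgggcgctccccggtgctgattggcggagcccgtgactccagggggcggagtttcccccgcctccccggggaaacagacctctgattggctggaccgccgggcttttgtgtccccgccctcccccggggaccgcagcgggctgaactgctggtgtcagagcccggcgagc
DDIT4: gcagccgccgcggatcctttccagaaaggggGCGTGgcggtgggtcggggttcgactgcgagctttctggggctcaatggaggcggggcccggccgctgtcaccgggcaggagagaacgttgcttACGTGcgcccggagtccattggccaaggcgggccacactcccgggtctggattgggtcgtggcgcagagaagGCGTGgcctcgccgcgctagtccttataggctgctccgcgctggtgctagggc

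Both strands were searched for TGATGNAAN, the core of the C/EBP-ATF response element bound by ATF4, for GCGTG and ACGTG, cores of the hypoxia response element, for TGACTCA, an AP-1 site, and for the E-box CACGTG. The letters of the E-box contain those of the latter hypoxia core, so a match to one can be a match to both. The DDIT4 window held GCGTG at 2 places, beginning 219 and 53 bases before the start, and ACGTG at 1 place, beginning 125 bases before it. Among all 35116 RefSeq windows of this length, 32.2% held GCGTG and 18.5% held ACGTG. The SESN2 window held none of the 5 motifs, which says only that these letters are not in these 250 bases. The 10 genes had 15 windows, since some have several starts. TGATGNAAN was found in 1 of these, before TSC2, as TGATGCAAG beginning 110 bases before 1 of its 2 starts and overlapping a CACGTG. It was in 3.13% of all windows, TGACTCA was in 4.2% and CACGTG in 6.34%. GCGTG was also found before SESN1, MTOR and RPTOR, and ACGTG before RHEB and TSC2. With DDIT4 counted, GCGTG was in 4 of the 15 windows and ACGTG in 3, while TGACTCA was in 0 and CACGTG in 1. A match is a description of letters and not a site of binding.

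The libraries held 16186988 to 21588822 estimated counts. CYR61 itself, the check of the labels, was at 221 and 218 TMM-scaled CPM (estimated counts scaled to library size) in the Vector libraries and at 8091 and 8620 CPM with CYR61. Gene counts do not separate the transgene from the cell's own copy. Of the hepatocyte markers, ALB and TTR were at 0 in all 4 libraries, which allows up to 0.136 to 0.188 CPM (3 counts per library, counting error only), AFP and APOA1 were at most 0.106 CPM, SERPINA1 was at 0.744 to 1.13 CPM and HNF4A at 3.57 to 5.79 CPM. The keratin genes KRT8 and KRT18 and the intermediate filament gene VIM were at 1055 CPM or more in every library, while EPCAM was at most 1.36 CPM and CDH1 at most 2.61 CPM. The leukocyte gene PTPRC and the endothelial gene PECAM1 were at most 0.0531 CPM. LYZ was at most 0.106 CPM, CDH5 at most 0.94 CPM and VWF at most 1.58 CPM. CD68 (48.1 to 67.2 CPM), CDH2 (49.7 to 59.7), COL1A1 (22.9 to 31) and PDGFRB (11 to 14.8) were detected and not called. Of the 22 marker genes, FN1 fell (log2 fold change -1.48) and DCN rose (2.34), and the others were not called or not tested. DCN was low in every library, at 0.637 and 0.544 CPM with Vector and at 3.68 and 2.26 CPM with CYR61. Between libraries of 1 group, differences followed GC content. Taken over 10364 genes, which share libraries and are no replicates, Spearman's rho with GC content was -0.75 for the difference of Vector 2 from Vector 1. The difference of CYR61 1 from CYR61 2 gave a rho of -0.80, and that of the CYR61 group from the Vector group gave -0.18.

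All 10 genes passed the filter on low counts and were among the 12698 genes tested. A gene is called where its adjusted p is below 0.05 by edgeR's quasi-likelihood test, with Benjamini-Hochberg adjustment over all tested genes. In all, 811 genes were called, 6.39% of those tested, with 232 higher and 579 lower (4.56% lower). With the trend on GC content removed from each library, 1734 were called higher and 1926 lower, 13.7% and 15.2% of 12668 genes (28.9% in all). Without a filter on low counts 648 were called higher and 1029 lower. Of the 10 genes, 2 were lower and 0 higher, so 8 were not called. Over all tested genes 1.83% were called higher. At an unadjusted p below 0.05 SESN3 was also lower and again 0 of the 10 were higher. At least 2763 and fewer than 2987 of all 12698 tested genes had such a p by edgeR, in either direction. DESeq2 and limma-voom called 0 of the 10 higher, beside 356 and 219 of all 12698 genes. The median log2 fold change of the 10 was -0.08, beside -0.006 over all tested genes. In 3 of the 10 both CYR61 libraries lay below both Vector libraries, as in 27.7% of all tested genes, and in 1 (TSC1) both lay above, as in 23.9%.

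**Figure D1:**
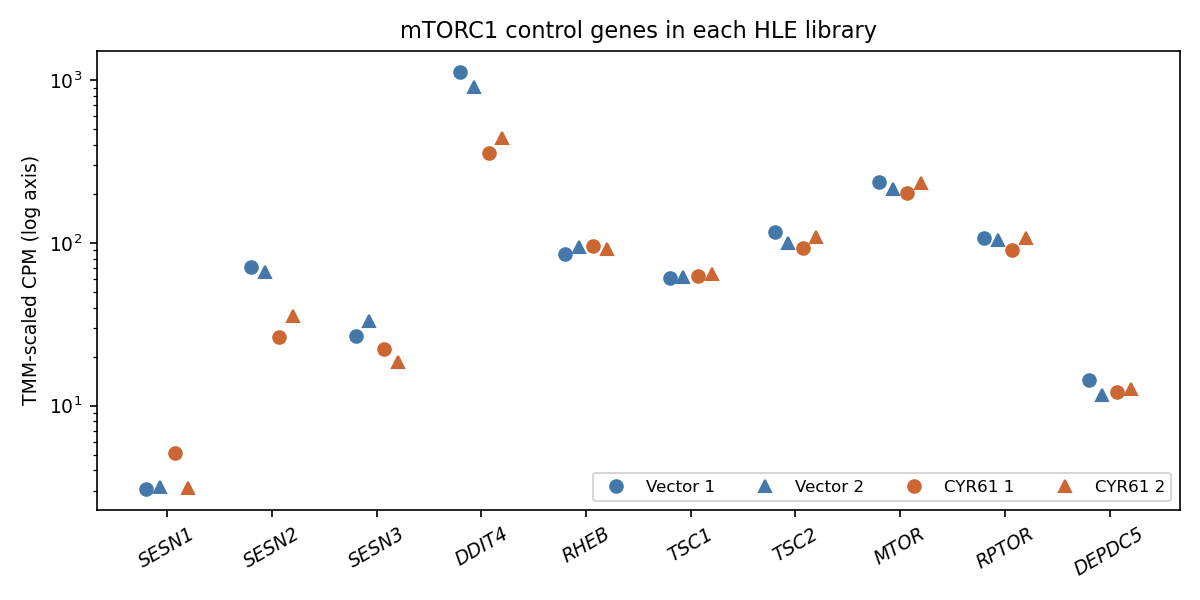
TMM-scaled CPM (log axis) of the 10 genes in each of the 4 libraries. Circles are replicate 1 and triangles replicate 2, with Vector in blue and CYR61 in orange. The CYR61 points of SESN2, SESN3 and DDIT4 lie below their Vector points, while those of RHEB, TSC2, MTOR, RPTOR and DEPDC5 overlap them.

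DDIT4 showed the greatest difference of the 10 genes. DDIT4 (ENSG00000168209, GRCh38 chromosome 10, 72273920 to 72276036, plus strand) was at 1127 and 906 CPM with Vector and at 356 and 438 CPM with CYR61. Each Vector library was above both CYR61 libraries. The counts behind these values were 21226 and 20008 against 7644 and 6985. The gene fell 2.56-fold, from 1017 ± 156 to 397 ± 58 CPM (mean ± SD, n = 2 each), with a log2 fold change of -1.36 (SE 0.14, 95% interval -1.68 to -1.04, edgeR adjusted p = 0.000653). After removal of the GC trend the log2 fold change was -1.26. Transcripts of DDIT4 are 61.2% GC. In bulk RNA, fewer expressing cells and less RNA per cell cannot be told apart. DDIT4-AS1, an antisense RNA gene on the opposite strand, overlaps 41.16% of the annotated exon bases of DDIT4 and was not analysed here. The sources used here do not give the strandedness of the libraries, and without strand reads of this RNA would count as DDIT4.

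SESN2 was the other gene called. SESN2 (ENSG00000130766, chromosome 1, 28259527 to 28282491, plus strand) was at 70.6 and 66 CPM with Vector and at 26.3 and 35.5 CPM with CYR61. The groups did not overlap, and the CYR61 libraries lay further apart than the Vector libraries. The level fell 2.22-fold, from 68.3 ± 3.25 to 30.9 ± 6.46 CPM, a log2 fold change of -1.15 (SE 0.16, 95% interval -1.50 to -0.80, edgeR adjusted p = 0.00262). After removal of the GC trend the log2 fold change was -1.07. Transcripts of SESN2 are 59.5% GC, and no other gene of the annotation overlapped its exons.

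SESN3, the sestrin linked to FOXO factors, was lower in both CYR61 libraries without passing the threshold. SESN3 (ENSG00000149212, chromosome 11, 95165513 to 95232541, minus strand) was at 26.9 and 33 CPM with Vector and at 22.1 and 18.4 CPM with CYR61. The groups did not overlap, but the gap between them was smaller than the difference between the Vector libraries. The log2 fold change was -0.56 (SE 0.17, 95% interval -0.94 to -0.18, unadjusted p = 0.00784, edgeR adjusted p = 0.082). The call depended on the processing, since the adjusted p by edgeR was 0.000742 after removal of the GC trend, 0.0165 without a filter on low counts and 0.0378 without CYR61 1. It was 0.434 without Vector 2 and 0.189 without CYR61 2.

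SESN1 rested on few counts and was not called. SESN1 (ENSG00000080546, chromosome 6, 108986437 to 109094819, minus strand) was at 3.08 and 3.17 CPM with Vector and at 5.12 and 3.13 CPM with CYR61. The library CYR61 1 alone stood higher, and the groups overlapped. The antisense gene AL390208.1, not analysed here, overlaps 7.09% of the exon bases of SESN1. The counts of SESN1 were 58 and 70 against 110 and 50. The log2 fold change was 0.42 (SE 0.28, 95% interval -0.21 to 1.05, edgeR adjusted p = 0.418), and it was 0.01 without CYR61 1 and 0.71 without CYR61 2.

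**Figure D2:**
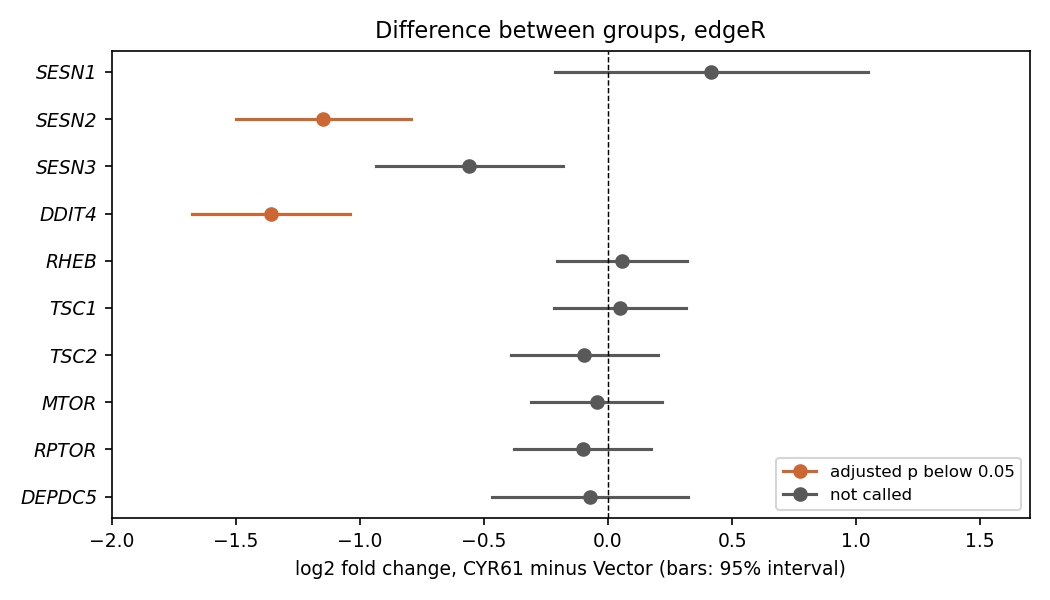
Log2 fold change of each of the 10 genes (CYR61 minus Vector, edgeR), with bars for the 95% interval. DDIT4 and SESN2, in orange, were called at -1.36 and -1.15. The intervals of RHEB, TSC1, TSC2, MTOR, RPTOR, DEPDC5 and SESN1 include 0.

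Levels of different genes were compared per kb of annotated exon. Per kb, SESN2 was the most abundant sestrin in every library. It made up 86.7% and 83.6% of the summed sestrin level in the Vector libraries and 71.1% and 81.4% with CYR61. SESN3 made up 10.8% and 13.7% with Vector and 19.5% and 13.8% with CYR61. SESN1 made up 2.55% and 2.71% with Vector and 9.32% and 4.85% with CYR61. For SESN2 both CYR61 shares lay below both Vector shares, and for SESN1 and SESN3 both lay above, with 1 CYR61 share of SESN2 and of SESN3 close to a Vector share. These shares were not tested. The summed sestrin level was 23.6 and 22.9 CPM per kb in the Vector libraries and 10.7 and 12.6 CPM per kb in the CYR61 libraries.

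**Figure D3:**
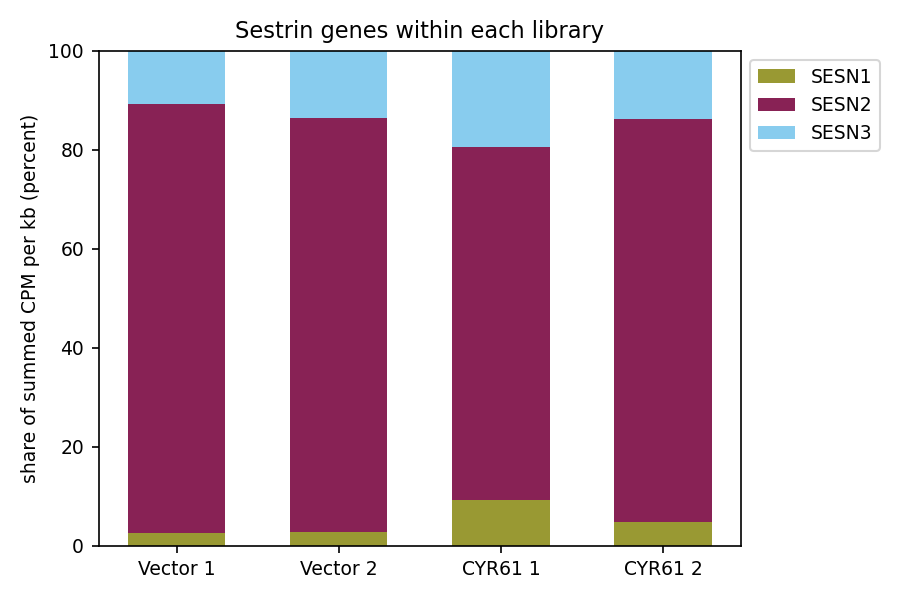
Share of each sestrin gene in the summed sestrin level (CPM per kb of exon, percent) in each library, as stacked bars. SESN2 takes 71.1% to 86.7% of each bar, and the lowest share is in CYR61 1.

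Among all 10 genes DDIT4 had the highest per-length level in both groups, 494 ± 75.7 CPM per kb in Vector and 193 ± 28.2 CPM per kb in CYR61 libraries. RHEB followed at 25.5 ± 1.73 and 26.5 ± 0.532 CPM per kb. In Vector libraries SESN2 (19.8 ± 0.942 CPM per kb) and MTOR (18.5 ± 1.24) came next and lay within about 1 SD of each other. In CYR61 libraries MTOR was at 17.9 ± 1.7 CPM per kb, and SESN2 (8.95 ± 1.87) and RPTOR (9.55 ± 1.1) did not differ beyond their spread. RPTOR was at 10.2 ± 0.264 CPM per kb in Vector libraries. TSC2 was at 5.5 ± 0.628 and 5.15 ± 0.565 CPM per kb, TSC1 at 3.48 ± 0.027 and 3.6 ± 0.0762, and SESN3 at 2.83 ± 0.412 and 1.92 ± 0.249. DEPDC5 (0.752 ± 0.11 and 0.715 ± 0.021) and SESN1 (0.61 ± 0.0127 and 0.805 ± 0.274) had the lowest levels. The union of annotated exons can include stretches these cells do not use, such as 19626 bases for TSC2 against 6344 in its longest transcript. By the longest transcript TSC2 was at 17 and 15.9 CPM per kb and SESN2 stood at position 4 of the 10 in Vector and position 6 in CYR61 libraries. By that length MTOR (25.8 ± 1.74) lay above SESN2 (19.8 ± 0.942) in Vector libraries. RPTOR (15.4 ± 1.77) lay above SESN2 (8.95 ± 1.87) in CYR61 libraries, so these pairs were close only by the exon union.

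Of the switch that DDIT4 acts on, only the RNA levels of TSC1, TSC2 and RHEB were measured, and not its activity. TSC1 (chromosome 9, 132891348 to 132946874, minus strand), which encodes the scaffold hamartin, was at 60.9 and 61.6 CPM with Vector and at 62.4 and 64.3 CPM with CYR61. Both CYR61 values lay just above the Vector values, and the log2 fold change of 0.05 (95% interval -0.22 to 0.32) was not called (edgeR adjusted p = 0.854). TSC2 (chromosome 16, 2047465 to 2089487, plus strand), encoding tuberin, the GTPase-activating subunit, was at 117 and 99.3 CPM against 93.3 and 109 CPM. Its groups overlapped, with a log2 fold change of -0.10 (95% interval -0.39 to 0.20, edgeR adjusted p = 0.719) whose sign turned without Vector 1 or CYR61 1. Exons of PKD1 on the opposite strand overlap 3.96% of TSC2's exon bases, and PKD1 was lower (log2 fold change -0.59, adjusted p = 0.0341 by edgeR). NTHL1, also on the opposite strand, overlaps 2.05% and was not called. RHEB (chromosome 7, 151466012 to 151520120, minus strand), the activating GTPase, was at 85.7 and 94.4 CPM against 94.9 and 92.3 CPM. The CYR61 values overlapped the Vector range (log2 fold change 0.06, 95% interval -0.21 to 0.32, edgeR adjusted p = 0.825).

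The kinase itself and its partner were at overlapping levels. MTOR (chromosome 1, 11106535 to 11262507, minus strand), the catalytic subunit of both mTOR complexes, was at 235 and 214 CPM with Vector and at 203 and 232 CPM with CYR61. The lower and the higher library of each group fell in a similar range (log2 fold change -0.05, 95% interval -0.31 to 0.22, edgeR adjusted p = 0.861). RPTOR (chromosome 17, 80544819 to 80966371, plus strand), encoding raptor, which binds the substrates of mTORC1, was at 107 and 104 CPM against 90.4 and 106 CPM. CYR61 1 alone lay below the others (log2 fold change -0.10, 95% interval -0.38 to 0.17, edgeR adjusted p = 0.677). DEPDC5 (chromosome 22, 31753867 to 31908033, plus strand), a subunit of GATOR1, was at 14.4 and 11.7 CPM against 12.1 and 12.7 CPM. Both CYR61 values lay inside the Vector range (log2 fold change -0.07, 95% interval -0.47 to 0.32, edgeR adjusted p = 0.855). The same-strand gene Z82190.2 shares 10.44% of the exon bases of DEPDC5 and had 0 counts in every library. For these 6 genes of the TSC, RHEB, mTOR and GATOR1 group the 95% intervals lay between -0.47 and 0.32 on the log2 scale, and differences inside these bounds were not resolved with 2 libraries per group.

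The rest of the pathway was read from 9 lists of 97 genes in all, 10 of them the genes above. The lists too were chosen with earlier results of these data known. Of the other 87 genes, 84 were tested, and 1 was higher and 11 were lower, with 72 not called and a median log2 fold change of -0.11. Over all tested genes 1.83% were higher and 4.56% lower, which is the background for the planned-fit counts of each list below. DDIT4L, a paralog of DDIT4, RRAGD and PRKAG3 had 0 counts in all 4 libraries. Counting all 97 genes, 94 were tested, with 1 higher and 13 lower, and 9 higher and 31 lower with the GC trend removed, a fit in which 13.7% of all genes were higher and 15.2% lower.

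**Figure D4:**
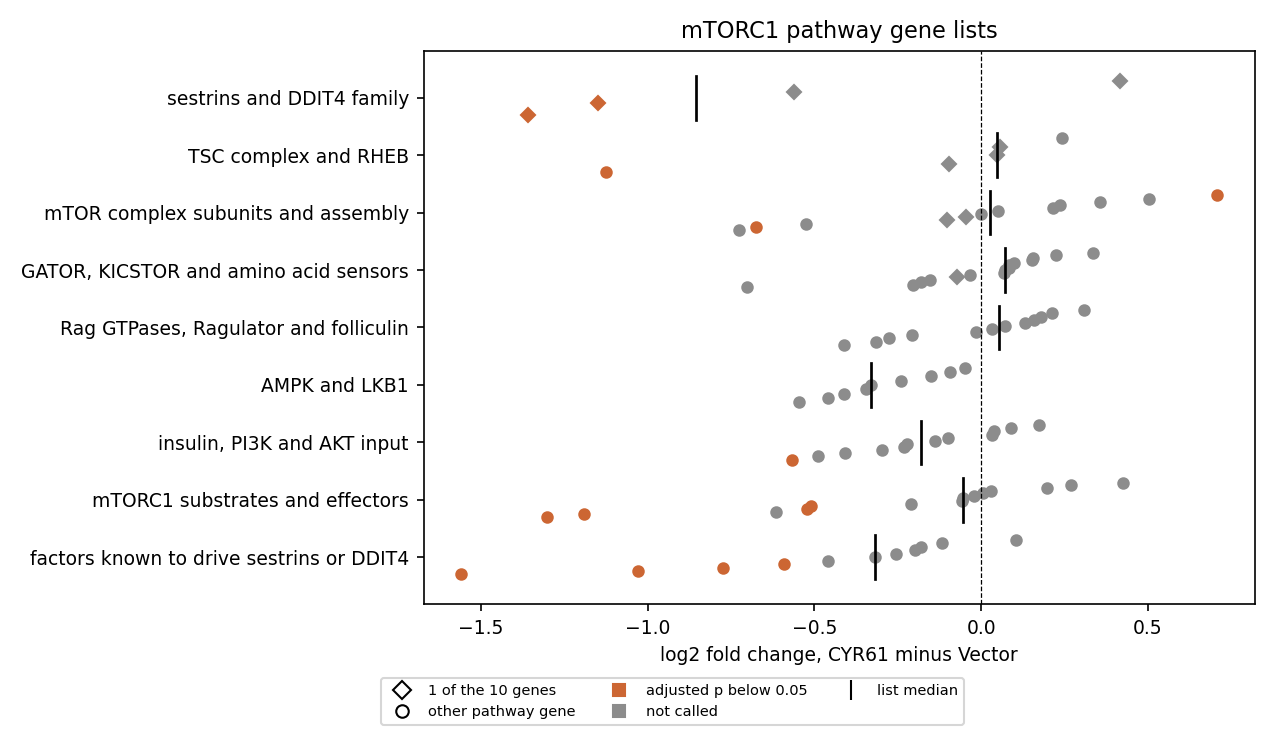
Log2 fold change (CYR61 minus Vector) of each tested gene in the 9 lists, with diamonds for the 10 genes, orange for an adjusted p below 0.05 and a vertical bar for the list median. Called genes lie in the lists of sestrins and DDIT4, RHEB and TSC, mTOR subunits, insulin input, effectors and upstream factors, and none lies in the GATOR, Rag or AMPK lists.

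In the list of the TSC complex and RHEB, 1 of 5 genes was lower, RHEBL1, a RHEB-like GTPase gene. RHEBL1 was at 10.5 and 8.79 CPM with Vector and at 4.84 and 3.95 CPM with CYR61, with no overlap (log2 fold change -1.12, SE 0.21, adjusted p = 0.0128 by edgeR). Of 12 genes for mTOR complex subunits and assembly, 1 was higher and 1 lower, with a median of 0.03. After removal of the GC trend 5 of the 12 were higher and 3 lower, beside 13.7% higher and 15.2% lower of all genes in that fit. Without a filter 2 were higher and 3 lower, beside 648 higher and 1029 lower of all 16069 genes. PRR5, whose protein binds rictor in mTORC2, was at 15.9 and 12.4 CPM against 21.1 and 25.2 CPM (log2 fold change 0.71, adjusted p = 0.0481 by edgeR). It is uncertain, since PRR5-ARHGAP8 shares 17.78% of its exon bases on the same strand. Its call was lost without Vector 2 (edgeR adjusted p = 0.254), without CYR61 2 (0.0697), with library size alone (0.0654) and with the filter of 5 CPM in 2 libraries (0.0547). PRR5L, a related gene, was at 38.1 and 40 CPM against 23.4 and 25.6 CPM (log2 fold change -0.68, adjusted p = 0.0206 by edgeR). The PRR5L call was lost without Vector 1 (0.0558), Vector 2 (0.0955) or CYR61 1 (0.0677).

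The nutrient-sensing branches showed no called gene in the planned fit. Of 15 genes of GATOR, KICSTOR and amino acid sensors, 0 were called by edgeR and the median log2 fold change was 0.07. KPTN, a KICSTOR subunit gene, had the smallest p (log2 fold change 0.34, unadjusted p = 0.0728), so 0 were below an unadjusted p of 0.05. Of 12 tested genes of the Rag GTPases, Ragulator and folliculin, 0 were called by edgeR and the median was 0.05. LAMTOR1, the Ragulator subunit that anchors the complex to the lysosome, had the smallest p (log2 fold change 0.31, unadjusted p = 0.0332, edgeR adjusted p = 0.173). Of 9 tested genes of AMPK and its activator LKB1, 0 were called by edgeR, although all 9 log2 fold changes were below 0, as were 50.8% of those of all tested genes, and the median was -0.33. PRKAB2, an AMPK beta subunit gene, had the smallest p of these (log2 fold change -0.55, unadjusted p = 0.0127, edgeR adjusted p = 0.103). At an unadjusted p below 0.05, LAMTOR1 and PRKAB2 were the 2 genes of these 3 lists. Of all 12698 tested genes, at least 2763 and fewer than 2987 were below that p by edgeR. DESeq2 and limma-voom called 0 genes of these 3 lists, beside 945 and 774 of all 12698 genes. With the GC trend removed, 1 gene of the GATOR list was higher, and of the Rag list 1 was higher and 2 lower. Of the AMPK list 4 were lower and 0 higher in that fit, where 13.7% of all genes were higher and 15.2% lower. Without a filter 1 gene of the AMPK list was lower and 0 of the GATOR and Rag lists were called, beside 1029 lower of all 16069 genes.

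In the insulin, PI3K and AKT list, 1 of 12 genes was lower, with a median of -0.18. With the GC trend removed 5 were lower and 0 higher, beside 15.2% lower and 13.7% higher of all genes in that fit. IRS2, an insulin receptor substrate gene, was at 197 and 182 CPM with Vector and at 120 and 136 CPM with CYR61 (log2 fold change -0.57, adjusted p = 0.0214 by edgeR). Its groups did not overlap, but the call was lost without Vector 1 (0.139) or CYR61 1 (0.124).

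Among 14 substrates and effectors of mTORC1, 4 were lower and 0 higher, with a median of -0.06. With the GC trend removed 5 were lower and 2 higher, beside 15.2% lower and 13.7% higher of all genes in that fit. GRB10, an adaptor that mTORC1 phosphorylates and that dampens insulin signalling, was at 88.5 and 91.9 CPM with Vector and at 38.9 and 34.1 CPM with CYR61. The CYR61 values were well below the Vector values (log2 fold change -1.30, SE 0.13, adjusted p = 0.000436 by edgeR). ULK1, the autophagy-starting kinase that mTORC1 inhibits, was at 281 and 250 CPM against 100.2 and 132 CPM (log2 fold change -1.19, SE 0.15, adjusted p = 0.0016 by edgeR). EIF4EBP1, encoding the translation repressor 4E-BP1, was at 209 and 185 CPM against 126 and 148 CPM (log2 fold change -0.52, adjusted p = 0.037 by edgeR). TFE3, a lysosomal gene activator held in the cytoplasm by mTORC1, was at 133 and 120 CPM against 81.5 and 96.4 CPM (log2 fold change -0.51, adjusted p = 0.0449 by edgeR). The EIF4EBP1 call was lost without Vector 1 (edgeR adjusted p = 0.255) or CYR61 1 (0.212) and with RLE size factors (0.053). The TFE3 call was lost without Vector 1 (edgeR adjusted p = 0.289), Vector 2 (0.0706) or CYR61 1 (0.256) and with RLE size factors (0.0608).

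Of 11 factors known to drive sestrins or DDIT4, 4 were lower and 0 higher, with a median of -0.32. With the GC trend removed 8 were lower and 0 higher, beside 15.2% lower and 13.7% higher of all genes in that fit. DDIT3, the stress factor CHOP, was at 26.2 and 25.2 CPM with Vector and at 8.33 and 9.15 CPM with CYR61 (log2 fold change -1.56, adjusted p = 0.000617 by edgeR). Exons of the opposite-strand genes listed as MARS and MBD6 cover 27.16% and 4.44% of those of DDIT3, so its level is uncertain without strand. The same-strand gene AC022506.1 shares 8.03% of the DDIT3 exon bases, which knowledge of the strand would not resolve. CEBPB fell by 1.03 on the log2 scale (edgeR adjusted p = 0.0015), and antisense CEBPB-AS1 overlaps 11.81% of its exon bases. EPAS1, which encodes HIF-2 alpha, fell by 0.77 on the log2 scale (edgeR adjusted p = 0.00259). ATF4, the main factor of the integrated stress response, was at 264 and 232 CPM against 153 and 177 CPM (log2 fold change -0.59, adjusted p = 0.0213 by edgeR). The ATF4 call was lost without Vector 1 (edgeR adjusted p = 0.141) or CYR61 1 (0.11). The other 7 were not called, with log2 fold changes that included -0.26 for HIF1A, 0.10 for NFE2L2, -0.32 for FOXO1, -0.12 for FOXO3, -0.20 for ARNT and -0.18 for NR3C1.

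The genes whose 4 library values lay closest to those of SESN2 and DDIT4 were found by Euclidean distance between log2 CPM values centred on each gene's mean, over 9173 other genes of at least 10 CPM. For SESN2 these were FZD10, a Wnt receptor gene (distance 0.0529), DUSP1, a MAP kinase phosphatase gene (0.0645), and ULK1 (0.0698). FZD10 was at 41.6 and 39.7 CPM with Vector and at 16.3 and 21.2 CPM with CYR61. For DDIT4 they were SMOX, a spermine oxidase gene (0.0901), GPT2, a mitochondrial alanine aminotransferase gene (0.118), and NOTUM, a Wnt-inactivating carboxylesterase gene (0.139). SMOX was at 120 and 100.3 CPM against 41.1 and 49.6 CPM. With 4 libraries these are descriptions and carry no test.

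**Figure D5:**
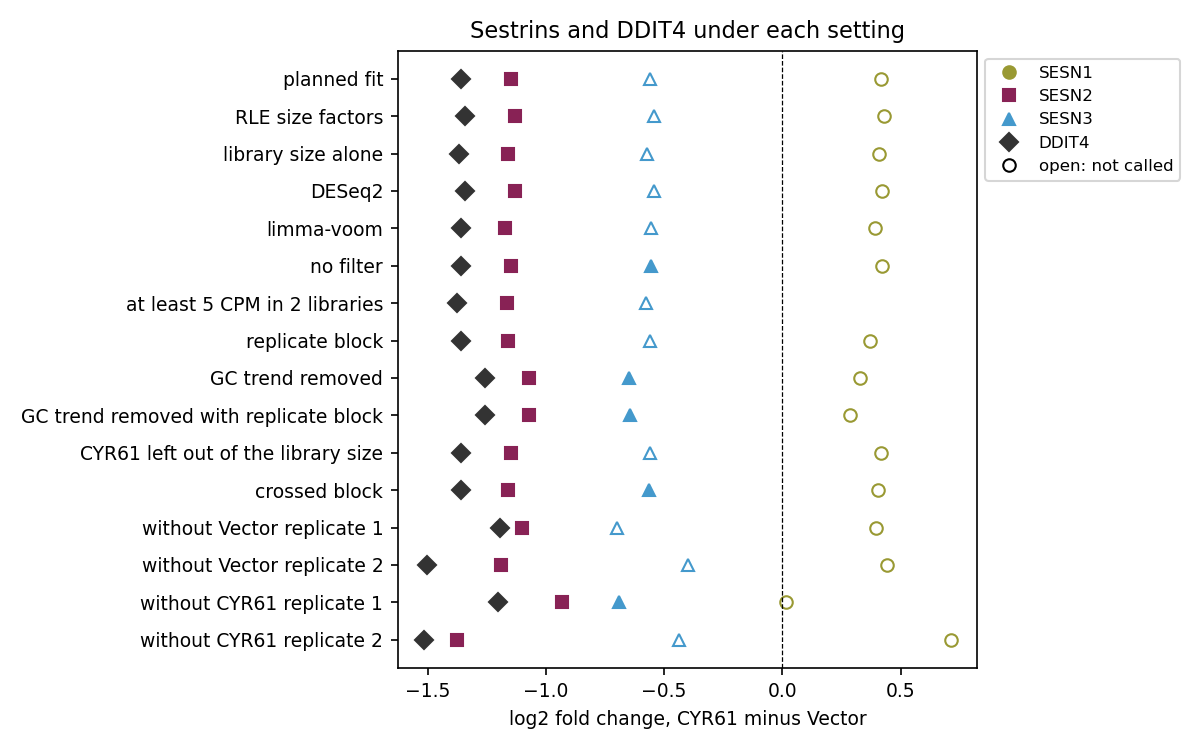
Log2 fold change (CYR61 minus Vector) of SESN1, SESN2, SESN3 and DDIT4 under the planned fit and 15 alternatives, with filled symbols for an adjusted p below 0.05. SESN2 and DDIT4 are filled in every line, SESN3 in 5 of the 15 alternatives and SESN1 in none of the 14 that tested it. The 15 include the crossed block, a choice made after seeing the data, and it is among the 5 for SESN3.

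Across the 15 alternatives the log2 fold change of DDIT4 lay between -1.51 and -1.19 and that of SESN2 between -1.37 and -0.93, and both were called in all 15. That of SESN3 lay between -0.70 and -0.40.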

How the data were processed

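RNA of 4 HLE libraries, 2 Vector and 2 CYR61, was analysed from the authors' deposited tables of estimated counts per Ensembl gene (11.2% to 12% of values not whole). Per the submitters' processing notes Cuffdiff 1.3.0, Cufflinks 2.2.1 and TopHat2 2.1.1 were used with build hg38. The sources used here do not give the counting program, annotation or strandedness. Estimated counts were rounded, filtered with filterByExpr (12698 genes kept) and scaled by TMM. They were tested with edgeR 4.0.16 (glmQLFit, glmQLFTest, R 4.3.3) on group alone. SE is the size of the log2 fold change over the square root of F, and intervals use the t distribution. Positions, exon lengths and GC content came from GENCODE 29, symbols from a table of gene names (20228 of 20286 matched) and promoters from RefSeq (all 10 genes matched).

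The members and lists were chosen with earlier results of these data known. Named were the 10 genes, CYR61, up to 4 called genes of smallest adjusted p per pathway list or else the 1 of smallest p, and 3 genes nearest to SESN2 and to DDIT4. Other genes named were chosen after their values were seen. Alternatives were DESeq2 1.42.0, limma-voom (limma 3.58.1), RLE factors, library size alone, no filter, at least 5 CPM in 2 libraries, a replicate block, removal of the GC trend (natural spline, 5 degrees of freedom) alone and with the block, CYR61 left out of the table and each library left out. A block of crossed replicate numbers was added after the data were seen. The fit was also run on simulated counts with a common dispersion and no GC trend between libraries. That run does not bear on the GC trend of these libraries, and its outcome is not reported here. No replicate pair had identical values. The value of 1 gene of the upstream factor list is not reported here.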

Additional observations from a re-analysis of the deposited data

How the results depend on the processing

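The calls of DDIT4 and SESN2 and their direction held in all 15 alternatives, and the number of the 10 genes called was 2 or 3. The number of all genes called, 811 in the planned fit, was 1677 without a filter, 3660 with the GC trend removed, 2685 with the GC trend removed and the replicate block, and 481 (without Vector 1) to 1331 (without CYR61 2) with 1 library left out. The number of pathway list genes called, 14 in the planned fit, was 22 without a filter, 40 with the GC trend removed, 32 with the GC trend removed and the replicate block, and 10 to 19 with 1 library left out. Libraries left without a partner were assumed to vary like the other group.

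The same replicate numbers occur in both groups, but the labels state no pairing, so the numbers were not taken as pairs. Deviations of same-numbered libraries had a correlation of -0.38. With 2 libraries per group the crossed numbers must give the mirror value, 0.38, and differences within each group followed GC content. The correlation therefore cannot decide whether the numbers mark pairs. With the replicate block 391 genes and 8 pathway list genes were called, and DDIT4 and SESN2 were the 2 of the 10. The block ended the calls of ATF4 (edgeR adjusted p = 0.129), PRR5L (0.133), PRR5 (0.145), IRS2 (0.161), EIF4EBP1 (0.223) and TFE3 (0.257). With the numbers crossed as the block, a choice made after seeing the data, 5624 genes, 50 pathway list genes and 3 of the 10 were called.

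Signs turned only for genes that were not called, and the cause was not tested. TSC2 was at 0.0024 with the GC trend removed, with or without the block. With 1 library left out, TSC2 ranged from -0.21 to 0.025, RHEB from -0.012 to 0.13, MTOR from -0.14 to 0.061, RPTOR from -0.22 to 0.025 and DEPDC5 from -0.21 to 0.084. The libraries whose absence turned a sign were Vector 1 (RHEB, TSC2, MTOR, DEPDC5) and CYR61 1 (TSC2, MTOR, RPTOR). By the longest transcript the mean share of SESN1 in Vector libraries was 3.74% in place of 2.63%. With 2 libraries per group, changes below those in the printed intervals cannot be resolved.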
